A study of Homo sapiens with 11 samples.

Results

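The miR-23, miR-24 and miR-27 miRNAs are made from 2 gene clusters, and their 10 mature forms listed here (hsa-miR-23a-3p, hsa-miR-23a-5p, hsa-miR-23b-3p, hsa-miR-24-3p, hsa-miR-24-1-5p, hsa-miR-24-2-5p, hsa-miR-27a-3p, hsa-miR-27a-5p, hsa-miR-27b-3p and hsa-miR-27b-5p) were chosen by name out of the 2576 human miRNAs counted. Small RNA was sequenced from SH-SY5Y, a human neuroblastoma line whose source is labelled as the bone marrow-derived line SK-N-SH, after differentiation with 10 µM all-trans retinoic acid (ATRA) for 7 days in every group. In co-treatment, 10 µM H2O2 was in the medium during those 7 days (3 H2O2 libraries against 3 controls without H2O2). In pre-treatment, the cells had 10 µM H2O2 for 72 h, which was removed before the 7 days of ATRA (3 H2O2 libraries against 2 controls without H2O2). The submitters describe triplicates with 1 outlying sample removed, which was not analysed here. The line is 1 tumour-derived culture, so the replicates carry no difference between donors.

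A miRNA gene is transcribed as a longer RNA that folds into hairpins, and each hairpin is cut into a duplex whose 5′ strand (5p) or 3′ strand (3p) is loaded into an Argonaute protein. Bases 2 to 8 of the loaded strand, the seed, pair with target mRNAs and lower their translation or stability. The miR-23, miR-27 and miR-24 hairpins lie next to each other in both clusters, so an a and a b paralog come from different primary transcripts. In other work miR-27 represses the lipid regulator PPARG and NFE2L2 (NRF2), the factor that switches on antioxidant genes, miR-23 and miR-27 both repress the apoptosis factor APAF1 in neurons, and miR-24 represses cell cycle genes. No target mRNA was measured in these libraries.

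The mature sequences show what separates the paralogs, and the seed is in capitals. They are RefSeq sequences of the GRCh38.p14 table, which held all 10. The 3p strands carry most of the reads, and those of miR-23 and of miR-27 each have one seed in both clusters.

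miR-23a-3p: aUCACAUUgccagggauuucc
miR-23b-3p: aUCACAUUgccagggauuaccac
miR-27a-3p: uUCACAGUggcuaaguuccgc
miR-27b-3p: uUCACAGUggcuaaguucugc
miR-24-3p: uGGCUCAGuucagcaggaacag

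Counted from 1 at the 5′ end of the a form, miR-23a-3p and miR-23b-3p differ by U19A, and miR-23b-3p has 2 more bases at its 3′ end. Between miR-27a-3p and miR-27b-3p the only difference is C19U, with 20 of 21 positions identical. A read that ends before position 19 therefore has the same letters for both members of either pair. The miR-24-3p sequence is identical at its 2 loci, so its reads have no single origin.

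The 5p strands differ more, and they tell the 2 clusters apart.

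miR-27a-5p: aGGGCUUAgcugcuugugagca
miR-27b-5p: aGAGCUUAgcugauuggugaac
miR-24-2-5p: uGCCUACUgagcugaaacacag
miR-24-1-5p: uGCCUACUgagcugauaucagu
miR-23a-5p: gGGGUUCCuggggaugggauuu

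The miR-27 5p strands differ at 8 of 22 positions. One of these is G3A, inside the seed, so miR-27a-5p and miR-27b-5p do not share a seed. The miR-24 5p strands have 1 seed and differ at 6 positions, from A16U onwards. The seed of miR-23a-5p is also that of miR-23b-5p (uGGGUUCCuggcaugcugauuu), which comes from the chromosome 9 cluster and is described with the relatives of the family.

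In GRCh37 (hg19, the build the submitters aligned to), the chromosome 19 cluster lies on the minus strand and spans 373 bases. It holds MIR23A (chr19:13947401-13947473), MIR27A (chr19:13947254-13947331) and MIR24-2 (chr19:13947101-13947173), all 3 inside an exon of the lncRNA MIR23AHG. The chromosome 9 cluster lies on the plus strand over 881 bases inside AOPEP, a protein-coding gene for an aminopeptidase. MIR23B (chr9:97847490-97847586) and MIR27B (chr9:97847727-97847823) are intronic in all 7 AOPEP transcripts that span them, while MIR24-1 (chr9:97848303-97848370) is intronic in 6 and overlaps an exon of 1. MIR24-1 also overlaps MIR3074 on the minus strand (chr9:97848296-97848376). The intervals of MIR24-1 and MIR24-2 come from an exact match of the RefSeq hairpin, and the others from GENCODE.

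The libraries held 5343953 to 8927582 counts, of which the 10 members made up 4.17% to 8.26%. Reads are not known to be independent molecules, so the limit of 3 counts, which is 0.336 to 0.561 CPM (counts scaled to one common library total) across the libraries, covers counting error only. The list of neuron-like markers had all 6 of its miRNAs in the table, but miR-124-3p, the defining miRNA of mature neurons, had only 0 to 7 counts. The summed level of the list, mostly from miR-137, was 33940 to 35209 CPM in the co-treatment controls and 15810 to 19936 CPM with H2O2, against 11945 and 23102 CPM in the pre-treatment controls and 28965 to 35625 CPM with H2O2. Not all of its members followed, as miR-128-3p and miR-125b-5p each overlapped between the co-treatment groups. The first pre-treatment control stood apart in the white blood cell and epithelial sums, mainly by miR-223-3p and miR-205-5p. White blood cell miRNAs (4 of 4 in the table) summed to 113 CPM there and to 9.49 to 21.7 CPM in the other libraries, with miR-223-3p at 540 counts against 3 to 35. Epithelial miRNAs (3 of 4 in the table) summed to 170 CPM against 30.1 to 40.6, with miR-205-5p at 1007 counts against 10 to 32. Not all members of these lists followed. In that control miR-200c-3p (178 counts), miR-141-3p (79) and miR-150-5p (33) lay within the range of the other libraries. Red blood cell miRNAs (4 of 4) summed to 2.01 and 3.81 CPM in the pre-treatment controls and 10.2 to 14.2 CPM with H2O2, against 4.67 to 7.30 and 5.93 to 9.95 CPM in co-treatment. Of this list miR-486-5p did not follow in pre-treatment, with 8 and 8 counts in the controls and 6, 10 and 3 with H2O2. Liver miR-122-5p was at 92.5 and 261 CPM in the pre-treatment controls and 537 to 788 CPM with H2O2, against 152 to 297 and 208 to 540 CPM in co-treatment. The endothelial pair miR-126-3p and miR-126-5p summed to 11583 to 18935 CPM in the co-treatment controls and 7647 to 10926 CPM with H2O2, against 4472 and 11153 CPM and 11125 to 11979 CPM in pre-treatment. The co-treatment sums did not overlap, as was so for miR-27b-3p and for 41.6% of all tested miRNAs. By itself, the more abundant miR-126-3p did overlap between these groups. Muscle miRNAs were at 0.537 to 3.66 CPM (2 of 3 in the table, with miR-133a-3p at 0 in every library). The part of these lists in the results below was not tested, and in these bulk samples fewer cells of a type and less RNA per cell cannot be told apart.

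CPM here is scaled by TMM, a normalisation on the bulk of the miRNAs, within each experiment, so levels of the 2 experiments were not normalised together. The mature forms are all 21 to 23 bases long, so CPM was not divided by length. miR-27b-3p was the most abundant member in every group, at 36850 ± 10155 CPM (SD, n = 3) in the co-treatment controls, and ranked 7 of 2576 by its median count over the 11 libraries. miR-23b-3p followed at 17888 ± 621 CPM, miR-23a-3p at 14931 ± 1082 CPM and miR-27a-3p at 5627 ± 1767 CPM in the same controls, and no 2 neighbours in this order overlapped. With co-treatment H2O2 miR-23a-3p (15383 ± 1636 CPM) and miR-23b-3p (14378 ± 390 CPM) overlapped. In both groups of pre-treatment the order was again miR-27b-3p, miR-23b-3p, miR-23a-3p and miR-27a-3p without overlap.

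The other 6 members were far lower. miR-27b-5p and miR-27a-5p lay at 81.1 ± 10.5 and 49.1 ± 14.5 CPM in the co-treatment controls, miR-24-3p at 12.7 ± 3.45 CPM, and miR-24-2-5p (3.17 ± 0.972 CPM), miR-23a-5p (2.36 ± 0.493 CPM) and miR-24-1-5p (1.48 ± 0.927 CPM) at the end, where each overlapped the next. miR-24-3p had 47 to 158 counts per library and ranked 353, although the miR-23 and miR-27 3p strands of the hairpins beside it had 12272 to 350433 counts. Of the 50 most abundant miRNAs, 39 matched a RefSeq name and 0 of these 39 have more than 1 locus, but only 136 of all 2262 matched miRNAs have. Of these 136 miRNAs with several loci, 47 had any count, and the most abundant, miR-128-3p, ranked 61. Neither value was compared with miRNAs of 1 locus. How reads that align to several places were counted is not given in the sources used here, and its part in the level of miR-24-3p was not tested.

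**Figure D1:**
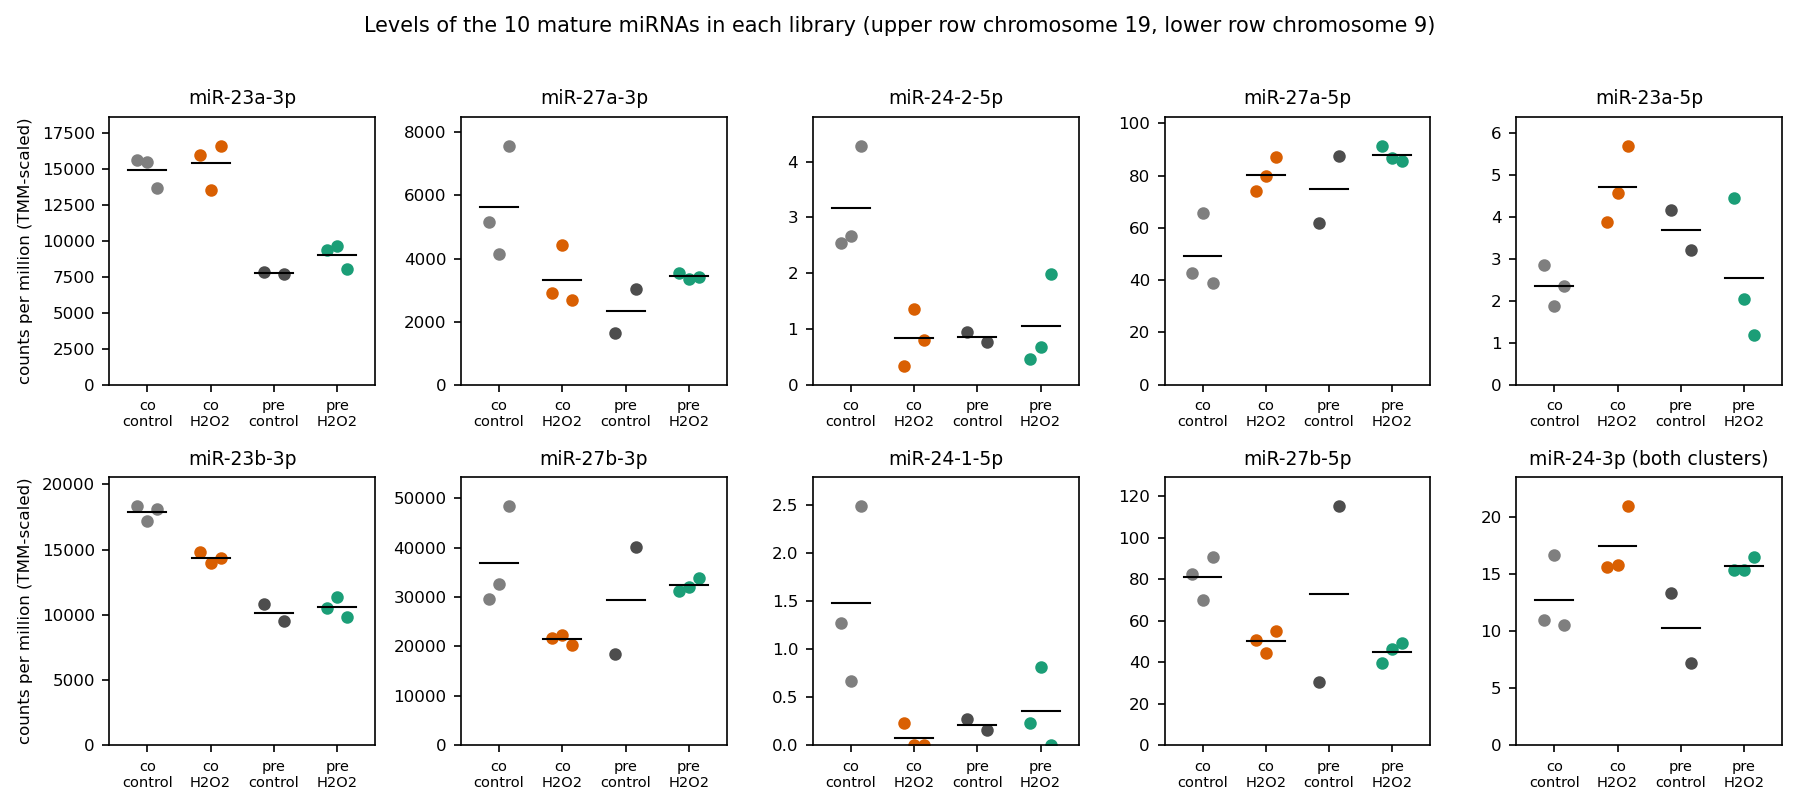
Level of each mature miRNA (TMM-scaled CPM, linear axes from 0) in each of the 11 libraries, with points for libraries, a bar for the group mean, chromosome 19 members in the upper row and chromosome 9 members with miR-24-3p in the lower row. The 3 co-treatment H2O2 libraries of miR-27b-3p lie between 20200 and 22366 CPM, below all 3 controls, and the 2 pre-treatment controls lie at 18424 and 40213 CPM, either side of their H2O2 libraries.

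Co-treatment asked what H2O2 during differentiation does to these miRNAs. By edgeR's exact test miR-27b-3p and miR-27b-5p were called as lowered, and no member was called as raised. Most alternative analyses lost the 2 miR-27b calls, and miR-27a-5p and miR-23a-5p narrowly missed a call as raised. miR-24-2-5p was also called as lowered, but it entered the test through its controls and was not tested when every library had to pass the filter. A call needed an FDR (Benjamini-Hochberg adjusted p of edgeR's exact test over all tested miRNAs) under 0.05 and a log2 fold change (log2FC) beyond 0.6 in either direction. Of the 10 members 9 entered the test and 3 were called, against 26.2% of all 790 tested miRNAs called, 15.6% as lowered and 10.6% as raised. An unadjusted p under 0.05 was found for 6 of the 9, against 40.1% of all tested. The quasi-likelihood test of edgeR called 2 of the 9, against 22.9% of all, and DESeq2 called 4, the same 3 and miR-27a-5p as raised, against 25.6%. The H2O2 and control libraries did not overlap for 6 of the 9, against 41.6% of all tested. The median log2FC was -0.32 over the 9 members and -0.04 over all tested.

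miR-27b-3p, the main product of MIR27B, had 29516, 32594 and 48441 CPM in the controls and 21653, 22366 and 20200 CPM with H2O2. Every H2O2 library was below every control, and the spread of the controls came mainly from control 3. Its log2FC was -0.78 with a standard error (SE, from the quasi-likelihood fit) of 0.22 and an FDR of 0.0222, which is 1.72-fold lower. The call was lost in 13 of 18 alternative analyses (FDR up to 0.202), among them 5 of the 6 that left out a library, and without control 3 the log2FC was -0.45.

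Its partner strand miR-27b-5p had 82.7, 69.9 and 90.7 CPM in the controls and 50.7, 44.2 and 54.9 CPM with H2O2. These groups did not overlap either. The log2FC was -0.70 (SE 0.26, FDR 0.0485), and the quasi-likelihood test gave an FDR of 0.0638. The call was lost in 15 of 19 alternatives, including 5 of the 6 with a library left out, with an FDR of up to 0.266.

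miR-24-2-5p, the passenger (less loaded) strand of MIR24-2, was the member with the lowest log2FC. It had 16, 20 and 31 counts in the controls and 3, 8 and 6 with H2O2. All H2O2 libraries were below all controls on few reads. The log2FC was -1.98 (SE 0.56, FDR 0.00487), and the counts summed over the libraries, scaled to their totals, had a ratio of 0.256 (exact 95% interval 0.141 to 0.442, counting error only). All controls exceeded the filter on low counts, but of the H2O2 libraries only replicate 2 did. Its entry into the test was therefore tied to the group where it was high. The FDR rose to 0.0604 without control 3 and to 0.0727 without H2O2 replicate 1, with log2FC of -1.61 and -1.53. It was also not called in the joint fit of both experiments (FDR 0.0644).

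miR-24-1-5p, the same strand of the chromosome 9 hairpin, was too low to pass the filter. It had 8, 5 and 18 counts in the controls and 2, 0 and 0 with H2O2. No H2O2 library reached the lowest control. The ratio of the summed counts, scaled to library totals, was 0.0652 (exact 95% interval 0.00756 to 0.256, counting error only). Without a filter miR-24-1-5p was called, and in the joint fit of both experiments it was not.

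The chromosome 19 paralog miR-27a-3p missed the threshold. Its controls had 5162, 4140 and 7580 CPM and its H2O2 libraries 2898, 4416 and 2690 CPM. H2O2 replicate 2 lay above control 2, so the groups overlapped. The log2FC was -0.75 (SE 0.27, FDR 0.0510), close to that of miR-27b-3p, and the FDR was 0.0126 without control 2 and 0.347 without control 3.

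The other strand of the same hairpin, miR-27a-5p, had 42.7, 65.7 and 39.0 CPM in the controls and 74.0, 79.8 and 87.3 CPM with H2O2. Here every H2O2 library was above every control. The log2FC was 0.71 (SE 0.28, FDR 0.0574), and it was called as raised in 7 of 19 alternatives, for example with DESeq2 (FDR 0.0268) and with library size in place of TMM (FDR 0.0305). miR-23a-5p, also from the chromosome 19 cluster, had 18, 14 and 17 counts in the controls and 34, 27 and 43 with H2O2. These groups did not overlap, with a log2FC of 1.00 (SE 0.39, FDR 0.0595).

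The miR-23 3p strands and miR-24-3p had smaller values. miR-23b-3p had 18349, 17181 and 18134 CPM in the controls and 14778, 13999 and 14358 CPM with H2O2, which do not overlap, and a log2FC of -0.32 (SE 0.20, FDR 0.362). miR-23a-3p had 13684 to 15616 CPM in the controls and 13530 to 16628 CPM with H2O2, with a log2FC of 0.04 (SE 0.21, FDR 0.925). Its 2 groups overlapped over nearly their whole range. miR-24-3p overlapped too, at 10.5 to 16.7 CPM against 15.6 to 21.0 CPM, with a log2FC of 0.45 (SE 0.30, FDR 0.290).

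**Figure D2:**
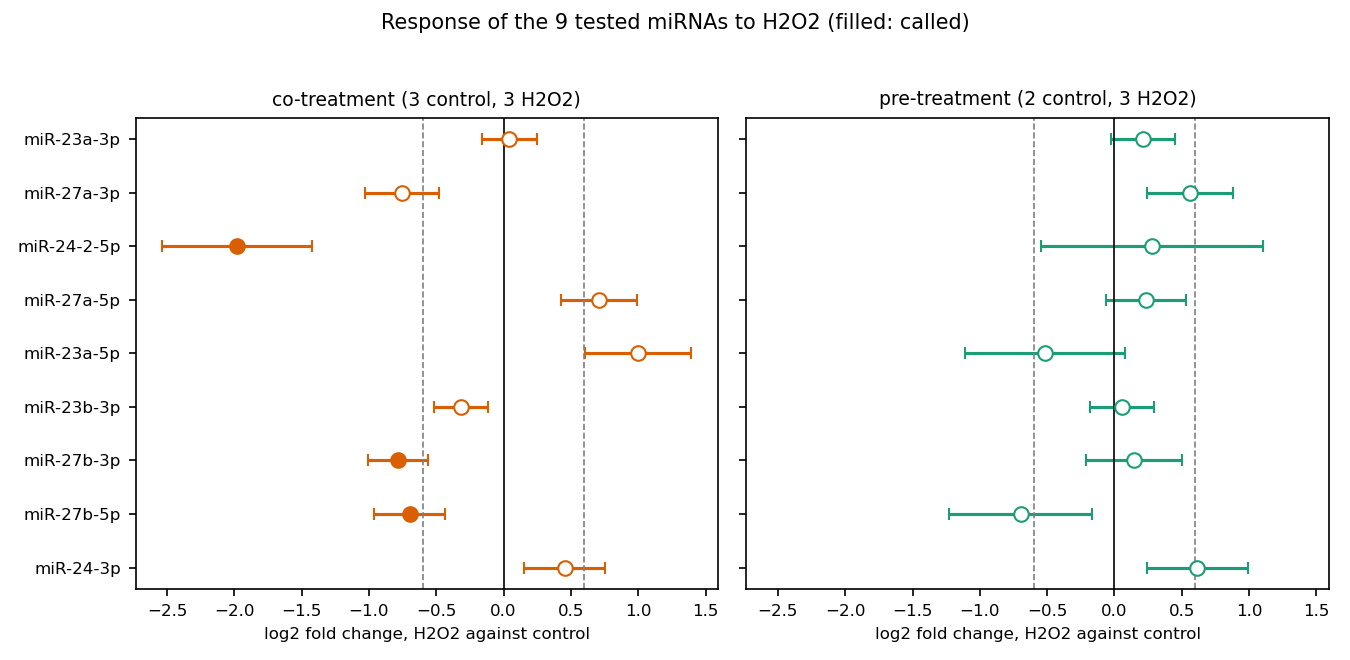
log2FC of H2O2 against control (x axis) for the 9 tested members in co-treatment and pre-treatment, with bars of 1 SE from the quasi-likelihood fit, filled points for called members and dashed lines at 0.6 on either side of 0. In co-treatment 3 filled points lie left of -0.6, and in pre-treatment no point is filled.

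The paralogs were then compared as ratios within a library, which need no scaling between libraries. With 3 against 3 or 3 against 2 libraries the smallest p of the exact two-sided permutation test is 0.1, so none of the 18 ratio comparisons could pass 0.05, and the lowest adjusted p (Benjamini-Hochberg over the 18) was 0.2. miR-23a-3p had 0.851, 0.902 and 0.755 reads per miR-23b-3p read in the co-treatment controls and 1.08, 0.967 and 1.16 with H2O2. Without overlap, the balance between the miR-23 paralogs was further toward the chromosome 19 form in each H2O2 library, by 0.35 on the log2 scale (exact permutation p = 0.1).

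For miR-27 the same comparison gave no such shift. miR-27a-3p had 0.175, 0.127 and 0.156 reads per miR-27b-3p read in the controls and 0.134, 0.197 and 0.133 with H2O2, a difference of 0.01 on the log2 scale (exact permutation p = 1). With a library left out the difference ranged from -0.18 to 0.11. The 5p strands of the same 2 hairpins went apart. There were 0.517, 0.941 and 0.430 miR-27a-5p reads per miR-27b-5p read in the controls and 1.46, 1.80 and 1.59 with H2O2, so miR-27b-5p was the more abundant in every control and miR-27a-5p in every H2O2 library. The difference was 1.44 on the log2 scale (exact permutation p = 0.1).

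The chromosome 19 members without miR-24-3p summed to 0.434, 0.395 and 0.320 of the chromosome 9 members in the co-treatment controls and to 0.520, 0.495 and 0.561 with H2O2. The ranges did not overlap (0.47 on the log2 scale, exact permutation p = 0.1). The paralog ratios of the abundant 3p strands differed by 0.35 for miR-23 and 0.01 for miR-27. A ratio of sums also moves with the mix of miR-23 and miR-27 reads, so 0.47 is not a shift shared by the paralogs. In pre-treatment the ratio of the sums was 0.327 and 0.217 in the controls and 0.264 to 0.313 with H2O2, which lie between the controls.

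The ratio of 3p to 5p reads of one hairpin compares 2 strands of the same precursor. For miR-27a the controls of co-treatment had 121, 62.9 and 194 reads of 3p per read of 5p and the H2O2 libraries 39.1, 55.3 and 30.8. Each H2O2 library was below each control, by 1.49 on the log2 scale in the mean (exact permutation p = 0.1). For miR-27b the ratio was 357, 466 and 534 in the controls and 427, 505 and 367 with H2O2. These ranges overlapped, with a difference of -0.06 on the log2 scale (exact permutation p = 0.8). The miR-27a log2 ratio minus the miR-27b log2 ratio was -1.56, -2.89 and -1.46 in the controls and -3.45, -3.19 and -3.58 with H2O2, again without overlap.

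Over all 180 hairpins with both arms measured in co-treatment, limma called 0% at an FDR under 0.05, and 28.9% had an unadjusted p under 0.05. The miR-27a change of -1.49 had an SE of 0.46 and an FDR of 0.104. Its FDR was 0.0444 when both arms needed a mean of 50 counts in place of 10, 0.0241 without control 2 and 0.277 without H2O2 replicate 3. The miR-23a ratio changed by -0.94 (SE 0.33, FDR 0.124) on 14 to 43 counts of its 5p strand, and the miR-23b ratio by -0.85 (SE 0.36, FDR 0.156). None of the 4 hairpins passed in co-treatment with the 10-count minimum.

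**Figure D3:**
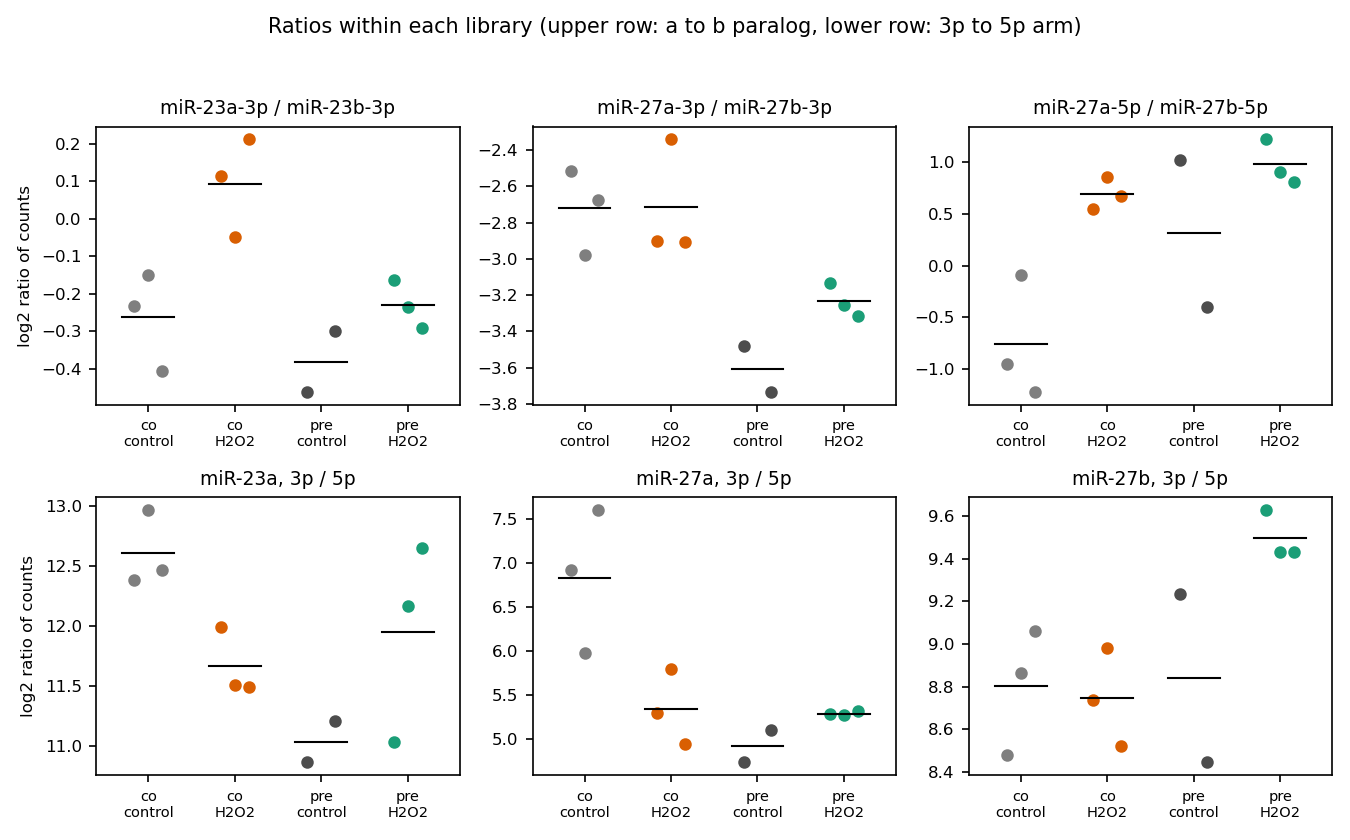
log2 ratio of counts within each of the 11 libraries (y axes do not start at 0), for the a to b paralogs in the upper row and the 3p to 5p arms in the lower row, with points for libraries and a bar for the group mean. The miR-27a 3p to 5p ratio of the co-treatment H2O2 libraries lies below that of all 3 controls, while the miR-27a-3p to miR-27b-3p ratios of these groups overlap.

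**Figure D4:**
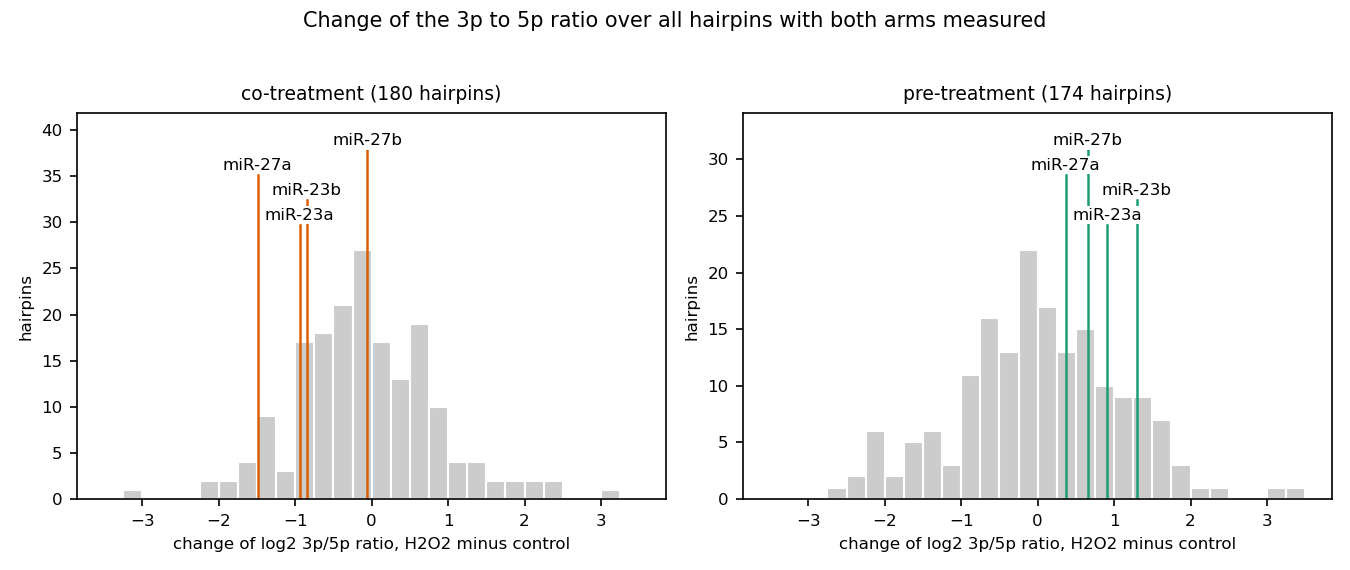
Number of hairpins (y axis) by the change of their log2 3p to 5p ratio, H2O2 minus control (x axis, bins of equal width), in 180 hairpins of co-treatment and 174 of pre-treatment, with lines at the 4 hairpins of the family. In co-treatment miR-27a (-1.49) lies in the lower tail and miR-27b (-0.06) near the middle, and in pre-treatment all 4 lie right of 0.

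Pre-treatment asked whether H2O2 that was removed before differentiation left a difference 7 days later. Of the 9 tested members 0 were called by the exact test of edgeR, 0 by its quasi-likelihood test and 0 by DESeq2, and 0 had an unadjusted p under 0.05 in the first of these. Over all 868 tested miRNAs the 3 tests called 15.3%, 1.96% and 15.6%, and 28.6% had an unadjusted p under 0.05. The groups did not overlap for 3 of the 9 members, against 46% of all tested. The median log2FC was 0.21 over the 9 and -0.19 over all tested.

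The 2 pre-treatment controls lay far apart for the miR-27 strands. miR-27b-3p had 18424 and 40213 CPM in the controls and 31180, 32100 and 33923 CPM with H2O2, and a log2FC of 0.14 (SE 0.36, FDR 0.860). The H2O2 libraries lay between the controls. Without control 1, the library with the blood and epithelial miRNAs, the log2FC was -0.27 (FDR 0.268), and without control 2 it was 0.79 (FDR 0.000482). A fit with a single control assumes that it varies like the H2O2 libraries.

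miR-27b-5p had 30.5 and 115 CPM in the controls and 39.3, 46.4 and 49.1 CPM with H2O2. Its log2FC of -0.70 (SE 0.53, FDR 0.448) was -1.31 without control 1 (FDR 6.42e-07) and 0.53 without control 2 (FDR 0.0886). The direction of both miR-27b strands thus turned with the control that was used.

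miR-27a-3p had 1647 and 3023 CPM in the controls and 3554, 3357 and 3413 CPM with H2O2. All H2O2 libraries were above both controls. The log2FC was 0.56 (SE 0.32, FDR 0.359), 0.23 without control 1 and 1.04 without control 2 (FDR 1.20e-05). miR-27a-5p had 61.8 and 87.7 CPM against 85.6 to 91.5 CPM, with a log2FC of 0.24 (SE 0.30, FDR 0.745).

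miR-23a-3p had controls close to each other, at 7863 and 7723 CPM, and 9397, 9634 and 8063 CPM with H2O2, without overlap and with a log2FC of 0.21 (SE 0.24, FDR 0.717). miR-23b-3p overlapped at 9505 and 10824 against 9859 to 11343 CPM, with a log2FC of 0.06 (SE 0.24, FDR 0.949). miR-24-3p had 13.3 and 7.17 CPM in the controls and 15.3, 15.3 and 16.4 CPM with H2O2. These groups did not overlap, and the log2FC of 0.61 (SE 0.37, FDR 0.422) became 1.17 without control 1 and 0.21 without control 2.

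The rarest strands had few counts. In pre-treatment miR-24-2-5p had 7 and 5 counts without and 4, 5 and 15 with H2O2. miR-24-1-5p, which did not pass the filter, had 2 and 1 against 2, 6 and 0. The ratios of summed counts were 1.23 (exact 95% interval 0.590 to 2.69) and 1.63 (0.392 to 9.57). miR-23a-5p had 31 and 21 counts against 38, 15 and 9, with a log2FC of -0.52 (SE 0.60, FDR 0.645).

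Among the within-library ratios, miR-27a-3p per miR-27b-3p was 0.0894 and 0.0752 in the pre-treatment controls and 0.114, 0.105 and 0.101 with H2O2. This ratio did not overlap although the level of miR-27b-3p did, with a difference of 0.37 on the log2 scale (exact permutation p = 0.1). The 3p to 5p ratio of miR-27a was 26.7 and 34.4 in the controls and 38.8, 38.6 and 39.9 with H2O2, above both controls by 0.37 in the mean. That of miR-27b was 603 and 349 against 792, 691 and 690, higher by 0.66. These values moved with the control that was used. Without control 1 the log2 differences of the 3 ratios were 0.50, 0.18 and 1.05, and without control 2 they were 0.25, 0.55 and 0.26. The miR-23a-3p to miR-23b-3p ratio was 0.726 and 0.813 in the controls and 0.818 to 0.894 with H2O2 (0.15 on the log2 scale, exact permutation p = 0.2, 0.07 without control 1 and 0.23 without control 2). With limma 8.62% of 174 hairpins were called in pre-treatment and 26.4% had an unadjusted p under 0.05, and none of the family was (miR-23b 1.30 with FDR 0.0790, miR-23a 0.91 with FDR 0.341, miR-27b 0.66 with FDR 0.277, miR-27a 0.37 with FDR 0.451).

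A different response of a member in the 2 experiments was tested by the interaction term of a quasi-likelihood model over the 11 libraries. A batch between the experiments and the regimen cannot be told apart in it. All 10 members entered this test, and miR-27a-3p was the 1 called, against 27.3% of 945 miRNAs. Its co-treatment log2FC minus its pre-treatment log2FC was -1.36 (SE 0.45, FDR 0.0348), from -0.75 and 0.56 in the separate fits. The call was lost in 9 of 14 alternatives, 8 of them with a library left out, and the difference was -0.83 without pre-treatment control 1. miR-27b-3p had a difference of -0.98 (SE 0.41, FDR 0.0897) and miR-23a-5p one of 1.51 (SE 0.68, FDR 0.109). That of miR-24-1-5p was -4.52 (SE 1.83, FDR 0.0805), on 0 to 18 counts a library. It passed the filter of this test only through co-treatment controls, the group where it was high. For miR-23a-3p and miR-23b-3p the differences were -0.18 (SE 0.30, FDR 0.690) and -0.38 (SE 0.30, FDR 0.362).

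Relatives and neighbours of the 2 clusters were followed as a list of 8, of which 7 were tested in each experiment. In co-treatment 0 of the 7 were called (26.2% of all tested were). In pre-treatment 1 was called, as lowered (9.91% of all tested were), miR-23b-5p, the passenger strand of MIR23B. It had 359 and 181 CPM in the controls and 114, 104 and 107 CPM with H2O2, so control 1 was again the extreme library and both controls were above all H2O2 libraries. The log2FC was -1.32 (SE 0.34, FDR 0.0205), and -0.70 without control 1 (FDR 0.00524). The call was lost in 9 of 18 alternatives, among them the quasi-likelihood test (FDR 0.0660) and each of the 3 that left out an H2O2 library (FDR 0.199 to 0.244). In co-treatment its log2FC was 0.52 (SE 0.29, FDR 0.184), from 108, 148 and 85.7 CPM in the controls and 188, 124 and 179 CPM with H2O2. The difference between the experiments was 1.86 (SE 0.46, FDR 0.00933), and it kept its call in all 14 alternatives run.

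miR-23c, which has the miR-23 seed but lies on chromosome X, had 3 to 15 counts per library and was called in neither experiment (log2FC -0.18 and 1.45, FDR 0.848 and 0.179). MIR181C lies 38039 bases from MIR23A, with MIR181D beyond it. Their difference between experiments passed the test for miR-181c-3p (-1.16, SE 0.38, FDR 0.0321) and miR-181d-5p (-1.28, SE 0.44, FDR 0.0412), with pre-treatment log2FC of 0.96 for each (FDR 0.0652 and 0.0681). Of all miRNAs in that test of the difference, 27.3% passed. miR-181c-5p was at -0.55 and -0.08 (FDR 0.221 and 0.911). miR-3074-5p, antisense to miR-24-3p, had 0 counts in every library, and miR-3074-3p had 0 to 12. miR-2278, elsewhere in AOPEP, had a log2FC of 0.27 and -0.13 (FDR 0.602 and 0.860).

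A list of 12 other miRNAs known from oxidative stress and NRF2 work was read beside these values, and 8 of them were tested. In co-treatment 0 of the 8 were raised (10.6% of all tested were) and 2 lowered (15.6% of all), miR-21-5p (-0.67, FDR 0.0360) and miR-142-5p (-1.30, FDR 0.0145), which is also in the white blood cell list. In pre-treatment miR-21-5p, a widely induced miRNA, was raised (1.53, FDR 0.000886), as were 5.41% of all tested, and miR-210-3p, the main hypoxia miRNA, was lowered (-1.75, FDR 0.00492), as were 9.91%. miR-144-3p and miR-153-3p, which with miR-27a and miR-142-5p repress NFE2L2 in SH-SY5Y cells, were too low to be tested.

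Across the 11 libraries, the mean log2 CPM of miR-23a-3p and miR-27a-3p was most like that of miR-98-3p (Pearson r = 0.93), miR-589-3p (0.93) and miR-17-5p (0.92) among 398 other miRNAs of at least 10 CPM. The mean of miR-23b-3p and miR-27b-3p was most like miR-199b-5p (0.96), miR-19a-3p (0.95) and miR-338-3p (0.94). The libraries fall into 4 groups in 2 experiments, so these values describe differences between experiments and groups together. Between the members themselves, miR-23a-3p and miR-23b-3p had an r of 0.88 and miR-27a-3p and miR-27b-3p one of 0.66, while miR-23b-3p and miR-27b-3p, from the same cluster, had one of -0.03, and miR-23a-3p and miR-27a-3p one of 0.39.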

How the data were processed

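SH-SY5Y small RNA libraries were made with the QIAseq miRNA kit and sequenced on an Illumina NextSeq instrument. Trimming by the authors used Cutadapt (2.10), alignment to hg19 Bowtie2 (2.4.1) and counting of mature miRNAs htseq-count (0.7.2), and the deposited counts are raw. The miRBase release, the use of molecular identifiers and the treatment of reads with several alignments are not given in the sources used here. The deposited tables of fold changes and p-values from the authors' own edgeR test (3.6.1) were not used.

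Samples were grouped by their labels. H2O2 was compared with control within each experiment by the exact test of edgeR 4.0.16 (R 4.3.3) with TMM factors, after the study's methods, at an FDR under 0.05 and an absolute log2FC above 0.6. Tested miRNAs had to exceed the CPM that 5 counts make in the smallest library (0.936 and 0.721) in at least 3 co-treatment or 2 pre-treatment libraries. SE values are from the quasi-likelihood fit, which also gave the interaction. Ratios had 0.5 counts added and an exact two-sided permutation test. The limma 3.58.1 test of 3p to 5p ratios, over hairpins with a mean of at least 10 counts in each arm, and the difference between the miR-27a and miR-27b arm ratios were added after seeing the data. Rate ratios have exact 95% binomial intervals. The scripts were tested on simulated data.

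Alternatives were DESeq2 1.42.0, other scalings and filters, a GC offset (lowess span 0.5, miRNAs of at least 10 CPM), summed paralogs, a joint fit, the replicate number as a block and each library left out. The members and all miRNA lists were chosen with earlier results of these data known. Named are all members, the listed relatives, the stress and marker lists by counts, and the 3 miRNAs most correlated with each cluster's 3p pair. Totals of 5343953 to 8927582 counts set the precision. Replicates are described as biological triplicates, and nothing more is said of separate cultures, so p-values measure the spread between these libraries.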

Additional observations from a re-analysis of the deposited data

Results flagged for a closer look

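The response of miR-27a-3p differed between the experiments by the interaction test, with a co-treatment log2FC lower than the pre-treatment log2FC by a difference of -1.36 (SE 0.45, FDR 0.0348, edgeR quasi-likelihood test). Its pre-treatment controls had 1647 and 3023 CPM, and without the first of them, in which miR-223-3p and miR-205-5p were high, the difference was -0.83 (FDR 0.148).

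The response of miR-23b-5p, the strand of MIR23B that is not among the 10 members, differed by 1.86 (SE 0.46, FDR 0.00933), with 0.52 in co-treatment and -1.32 in pre-treatment. Leaving out a library gave 1.40 to 2.30.

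The 3p to 5p ratio of miR-27a was below all controls in every co-treatment H2O2 library (a difference of -1.49 on the log2 scale) and above both controls in every pre-treatment H2O2 library (0.37). The difference between these 2 differences was not tested. The pre-treatment value ranged from 0.18 to 0.55 with a library left out. Groups of 3 or fewer libraries are too small for a test of outlying samples.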

How the results depend on the processing

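Within each experiment the block, GC and joint fits used the quasi-likelihood test, while the filters and left-out libraries kept the exact test. Against 207 calls and 3 called members in co-treatment by the exact test, the quasi-likelihood test gave 181 with 2. With the latter test, the replicate block gave 111 calls with 1 member (miR-24-2-5p) and the GC offset 24 with 0 members. The GC offset with the block gave 0 with 0, the same 363 miRNAs without the offset 126 with 1 (miR-27a-5p), and the joint fit 84 with 0. Leaving out a library gave 98 (without H2O2 replicate 3) to 279 calls (without control 2) and 0 to 5 members, with 0 without control 3 or H2O2 replicate 1, and 5 without control 2. Against 133 calls in pre-treatment by the exact test, no filter gave 61 and the quasi-likelihood test 17. With the latter test, the block gave 15, the GC offset 41, the offset with the block 0 and the same 348 miRNAs without the offset 52. Leaving out a library gave 9 (without H2O2 replicate 2) to 449 calls (without control 2, and 285 without control 1) and 0 to 2 members. Against 258 interaction calls with 1 member, the block gave 115 with 0 members, no filter gave 3 members, and a library left out gave 164 to 444 calls with 0 to 3 members.

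With library size in place of TMM the share of raised calls went from 40.6% to 50.5% in co-treatment and from 35.3% to 42.6% in pre-treatment, miR-27b-3p (FDR 0.0550) and miR-27b-5p (FDR 0.0945) lost their co-treatment calls, and the members summed to 56478 CPM in place of 54656 with co-treatment H2O2. A filter in every library made 56.9% of the co-treatment calls raised.

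Directions turned for uncalled values in pre-treatment. miR-23b-3p was at -0.14 with the filter in every library, -0.14 with the GC offset, -0.059 with the offset and the block and -0.21 on the same miRNAs without it, where miR-23a-3p was at -0.050 and miR-27b-3p at -0.055. miR-24-2-5p was at -0.58 with the block. Leaving out a library gave -0.27 to 0.79 for miR-27b-3p, -1.31 to 0.53 for miR-27b-5p and -0.061 to 0.20 for miR-23b-3p. In co-treatment the summed miR-23a-3p and miR-23b-3p had -0.16. The cause of these shifts was not tested.

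Whether the replicate numbers pair the samples could not be decided, because the groups are too small. Deviations of same-numbered libraries correlated at 0.04, -0.24 and -0.26 in co-treatment, and those of differently numbered libraries at -0.12 to 0.32. In pre-treatment same-numbered libraries had 0.36 and -0.03. The deviations of the pre-treatment controls mirror each other, so those values are not independent of the differently numbered ones. The block was fitted with the quasi-likelihood test. Of the results called by that test, it ended those of miR-27b-3p (FDR 0.0722) and the miR-27a-3p interaction (FDR 0.0978). The co-treatment miR-27b-5p and the pre-treatment miR-23b-5p were not called by that test even without the block (FDR 0.0638 and 0.0660). With the block their FDR was 0.101 and 0.363.

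miR-24-1-5p and miR-24-2-5p rest on 0 to 31 counts a library (0 to 4.29 CPM). The 2 pre-treatment controls disagree by more than most contrasts.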
